A study of Mus musculus with 4 samples.

Results

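Axon guidance ligands and their receptors were read out gene by gene in telencephalon of mouse embryos at stage E13.5 (days of gestation), with and without Tcf20, a nuclear protein related to Rai1. The members are the semaphorins, plexins, neuropilins, ephrins, Eph receptors, Slits, Robos, netrins, Unc5 receptors and Dcc, taken by gene symbol from the deposited tables. The symbol rule used no values, but the group was chosen with earlier results of these data known. The symbols gave 68 genes of 22084 in the files: 20 semaphorins, 9 plexins, 2 neuropilins, 8 ephrins, 14 Eph receptors, 3 Slits, 4 Robos, 3 netrins, 4 Unc5 receptors and Dcc. All 68 are protein coding, and 66 had enough counts to be tested among 16252 genes. Plxnb3, a plexin of the B class, had 4 to 7 counts per library and Ntn5, a netrin-like secreted protein, had 2 to 7, so these 2 were not tested.

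There were 4 libraries, all from the mixed strain B6D2F2 at the same stage. KO26F and KO23M carry the genotype TCF20-/- in the labels. WT22M is titled wild type while its genotype field says TCF20+/-, and WT25F is TCF20+/+. Whichever label holds for WT22M, these last libraries keep a wild-type allele, and they are named carriers below. The labels name the tissue as telencephalic, while their extraction protocol names cerebral cortex. No label ties a library to a litter, so p-values measure only the spread between these samples, which may be technical in part. The part of Tcf20 that was deleted, and whether the loss was confined to some cells, was not given in the sources used here.

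A growing axon steers by proteins that neighbouring cells secrete or display. Semaphorins, Slits and ephrins are known mainly as repellents, although each can attract in some settings. Netrins attract through Dcc and repel where an Unc5 receptor takes part. Semaphorins signal through plexins, and most class 3 semaphorins also need a neuropilin; Slits bind Robos; ephrins bind Eph receptors and can signal back into the cell that carries them. In the embryonic telencephalon the same proteins also act on migrating neurons, on progenitors and on growing blood vessels.

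Depth was even, at 18127024 counts in KO26F, 18509743 in KO23M, 17791641 in WT22M and 17944649 in WT25F, so the limit that a count of 0 allows (3 counts) was 0.163 to 0.171 counts per 1000000 (CPM). CPM here uses the library size scaled by edgeR's TMM factors. The members took 0.604% to 0.622% of all counts. Tcf20 stood at 97.1 CPM in KO26F and 105 CPM in KO23M, against 113 CPM in WT22M and 117 CPM in WT25F, and the log2 fold change of -0.18 (SE 0.10) did not pass (edgeR adjusted p = 1). Since the counts cover the whole gene, Tcf20 does not check the genotype labels. The title letters F and M fitted sex-linked genes: Xist reached 511 CPM in KO26F and 446 CPM in WT25F, against 0.0549 CPM in KO23M and 0.171 CPM in WT22M. The defining markers of neurons and progenitors were present in every library, with none at 0 counts. In bulk tissue, fewer cells of a type and less RNA per cell cannot be told apart.

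To show the sequence beside the start of members that the results turn on, 3 promoters are printed as RefSeq places them on GRCm38.p6, each the 250 bases before the start that RefSeq gives, 5′ to 3′ on the gene's strand. The files start Nrp1 further upstream, at 128358604 on chromosome 8, so its window lies inside the gene as they place it, in bases that no exon of GENCODE vM21 covers. Efnb1 had the highest level per kilobase of all members, Nrp1 the largest ratio between libraries among the members that passed 10 CPM in each, and Unc5a the highest level of the netrin receptors. Capitals mark GGGCGG, the core of a GC box, read on either strand (CCGCCC on the printed one).
Efnb1, chrX:99135811-99136060, plus strand: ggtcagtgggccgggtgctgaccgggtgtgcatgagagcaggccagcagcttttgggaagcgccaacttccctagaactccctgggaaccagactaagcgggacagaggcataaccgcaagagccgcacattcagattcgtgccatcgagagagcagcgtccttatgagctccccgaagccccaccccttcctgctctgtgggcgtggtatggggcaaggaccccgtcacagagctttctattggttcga
Nrp1, chr8:128358823-128359072, plus strand: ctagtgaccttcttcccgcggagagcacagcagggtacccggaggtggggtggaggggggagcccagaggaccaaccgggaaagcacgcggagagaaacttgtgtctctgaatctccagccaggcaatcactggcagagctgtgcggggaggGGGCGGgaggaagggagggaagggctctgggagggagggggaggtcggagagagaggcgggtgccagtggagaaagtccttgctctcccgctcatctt
Unc5a, chr13:54949161-54949410, plus strand: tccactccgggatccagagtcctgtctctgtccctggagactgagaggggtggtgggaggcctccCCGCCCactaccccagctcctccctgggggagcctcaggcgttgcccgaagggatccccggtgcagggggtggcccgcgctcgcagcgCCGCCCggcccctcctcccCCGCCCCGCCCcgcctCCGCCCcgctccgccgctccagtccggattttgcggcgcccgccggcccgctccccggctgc

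The Efnb1 promoter held 0 matches, the Nrp1 promoter 1 and the Unc5a promoter 5. G and C made up 60% of the Efnb1 window, 64.4% of the Nrp1 window and 76.8% of the Unc5a window. A promoter was on hand for 58 members, and 43 of them (74.1%) held GGGCGG on either strand, against 63.2% of 11466 genes tested that had a promoter. The 58 members had 74 promoters, and a gene counted where any of its promoters held the letters. The number of promoters per gene was not matched between members and the other genes. TATAAA, the letters of a TATA box, stood on either strand in 2 members (3.45%), against 7.95% of those genes. The median G and C content was 64.4% for the members and 59.6% for those genes. A match is a match of letters only.

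The members spanned more than 3 powers of 10 in level, and each family had a few members that carried most of its RNA. Levels between genes are given as CPM per kilobase of exon, with the mean over the 4 libraries. Efnb1 led at 87.0 and Plxnb3 was lowest at 0.0513 CPM per kb. The median of the tested members was 7.36 CPM per kb, against 4.63 over 16231 genes tested that have a length. Of the 66 tested members, 42 (63.6%) lay above the median of all genes tested. Measured along the longest transcript in place of all exons, 9 of the 10 highest members were the same genes, but the order of some neighbours changed, as given below.

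**Figure D1:**
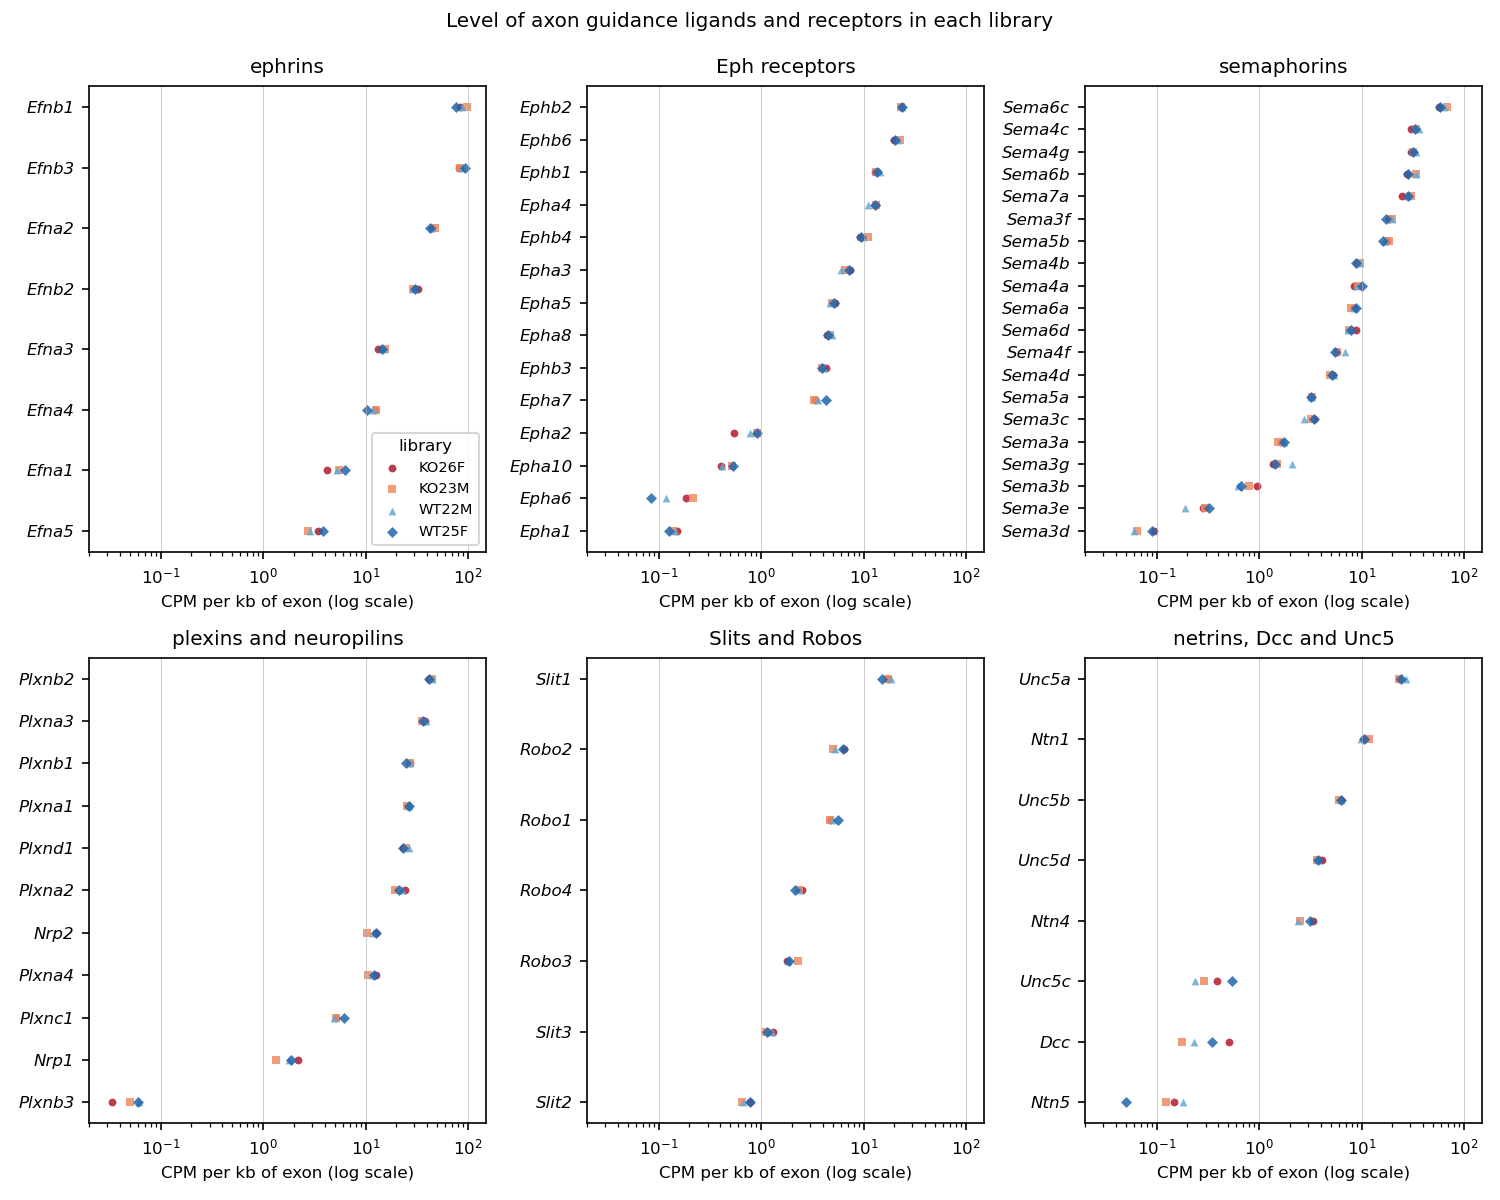
Level of each of the 68 members in CPM per kb of exon (log axis), 1 point per library, by family, with members ordered by mean level. The 4 libraries lie close together for most members, and the spread widens for low members such as Epha6, Unc5c and Dcc.

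Among the ephrins, the transmembrane B class outweighed the membrane-anchored A class in every library. The summed level of Efnb1, Efnb2 and Efnb3 was 199 CPM per kb in KO26F and 211 in KO23M, against 204 in WT22M and 202 in WT25F. The 5 ephrin-A genes summed to 77.8 CPM per kb in KO26F and 84.5 in KO23M, against 79.5 in WT22M and 76.9 in WT25F. Efnb1 (87.0 CPM per kb) and Efnb3 (86.6) stood at nearly the same mean level, and their values overlapped across libraries. Efna2 followed at 44.8 and Efnb2 at 30.6 CPM per kb of all exons, while along the longest transcript the means were close, at 44.8 and 43.7. Efna5, which maps retinal and cortical projections, was lowest at 3.22 CPM per kb.

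The receptors of the B class led the Eph family as well. Ephb2, a receptor for ephrin-B ligands, stood at 23.6 CPM per kb, Ephb6, a family member whose kinase domain is catalytically inactive, at 21.3, and Ephb1 at 13.6. Of the A class, Epha4, which binds ephrins of both classes, was highest at 12.6 CPM per kb. Ephb1 and Epha4 overlapped on this scale, and along the longest transcript their means were 20.4 and 16.0. Epha3 and Epha5, receptors for ephrin-A ligands, reached 6.81 and 5.02 CPM per kb, in the other order along the longest transcript (10.4 and 11.5). The 4 lowest were Epha2 (0.788 CPM per kb), Epha10 (0.472), Epha6 (0.151) and Epha1 (0.141), and the values of Epha6 and Epha1 overlapped.

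Transmembrane semaphorins made up most of the semaphorin RNA. Sema6c, a class 6 transmembrane semaphorin, led at 62.2 CPM per kb, followed by Sema4c (33.7), Sema4g (32.1) and Sema6b (31.0), and the values of these 3 overlapped. Along the longest transcript Sema4g stood above the other two, at 61.1 against 39.8 for Sema4c and 32.9 for Sema6b. Class 6 summed to 102 CPM per kb in KO26F and 118 in KO23M, against 114 in WT22M and 104 in WT25F. The 7 secreted class 3 genes summed to 26.5 CPM per kb in KO26F and 27.2 in KO23M, against 27.4 in WT22M and 25.1 in WT25F. Sema3f, a ligand for neuropilin 2, accounted for most of that class at 18.9 CPM per kb. Sema3a, a ligand for neuropilin 1, was at 1.66, and Sema3d, a vascular and neural class 3 ligand, was lowest at 0.0771 CPM per kb.

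Their receptors ran from 43.2 down to 0.0513 CPM per kb. Plxnb2, a receptor for class 4 semaphorins, stood at 43.2 CPM per kb and Plxna3, a co-receptor for class 3 semaphorins, at 37.1, without overlap between the 2 genes. Plxnb1 (26.6), Plxna1 (26.2), Plxnd1 (24.6) and Plxna2 (21.9 CPM per kb) came next, while Plxnb3 was hardly read at all (0.0513). Along the longest transcript Plxna2 stood at 34.0, above Plxnb1 (29.5), Plxna1 (26.3) and Plxnd1 (26.0). Nrp2, the co-receptor that binds Sema3f, was at 11.8 CPM per kb, and Nrp1, which binds Sema3a and VEGF, was at 1.79. The level of Nrp2 was above that of Nrp1 in all 4 libraries.

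Slit1 dominated the Slits at 17.2 CPM per kb, above Slit3 at 1.21 and Slit2 at 0.721. The order of Slit2 and Slit3 turned round along the longest transcript, at 1.84 for Slit2 and 1.41 for Slit3. Their receptors Robo2 and Robo1 stood at 5.76 and 5.02 CPM per kb, and the ranges of these 2 overlapped. Robo4, known from endothelium, was at 2.34 CPM per kb and Robo3, known from commissural neurons of the hindbrain and spinal cord, at 1.94, with overlapping ranges. Of the netrin system, Unc5a, a repulsive netrin receptor, led at 24.4 CPM per kb, ahead of the ligand Ntn1 at 10.8. Unc5b (6.23), Unc5d (3.82) and Ntn4 (2.85 CPM per kb) followed. Unc5c and Dcc, the attractive netrin receptor, were low at 0.363 and 0.314 CPM per kb, and their ranges overlapped.

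The question of the series is how loss of Tcf20 affects the embryonic brain, and the comparison that bears on it sets the KO libraries against the carriers. None of the 66 members passed: 0 were called by edgeR's quasi-likelihood test with Benjamini-Hochberg adjustment at 0.05, against 10 of all 16252 genes (0.0615%). The lowest adjusted p of a member was 1 after rounding. DESeq2 and limma voom also called 0 members. At an unadjusted p under 0.05 there was 1 member, Epha7, and the share of all genes there was 2.86%. The median log2 fold change was -0.01 for the members and 0.00 for all genes tested, and the median absolute value was 0.08 for the members and 0.09 for all genes.

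The intervals show how large a change these 4 libraries could hold. For 55 of 66 members (83.3%) the 95% interval of the fold change lay within 1.5-fold in either direction, against 64.6% of all genes tested. The log2 fold changes of these 55 ran from -0.26 to 0.18, and the lowest mean level among them was 7.36 CPM. The interval reached past 1.5-fold for 11 members: Epha1, Epha2, Epha6, Epha10, Efna1, Sema3b, Sema3d, Sema3e, Sema3g, Unc5c and Dcc. For 6 of these (Epha1, Epha6, Sema3b, Sema3d, Unc5c and Dcc) it reached past 2-fold.

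Counted without a threshold, both KO libraries lay on the same side of both carriers for 18 of 66 members (27.3%), 8 higher and 10 lower, against 27.4% of all genes tested. Of the 4451 genes on one side in that background, 50.6% were higher and 49.4% lower. The share was close to the background. The 8 higher were Epha4, Epha6, Efna2, Efna4, Sema3b, Sema5b, Robo4 and Ntn1. The 10 lower were Ephb1, Ephb2, Epha7, Efnb3, Sema3a, Sema6a, Plxna1, Robo1, Unc5a and Unc5b. The other 48 members overlapped between the arms.

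**Figure D2:**
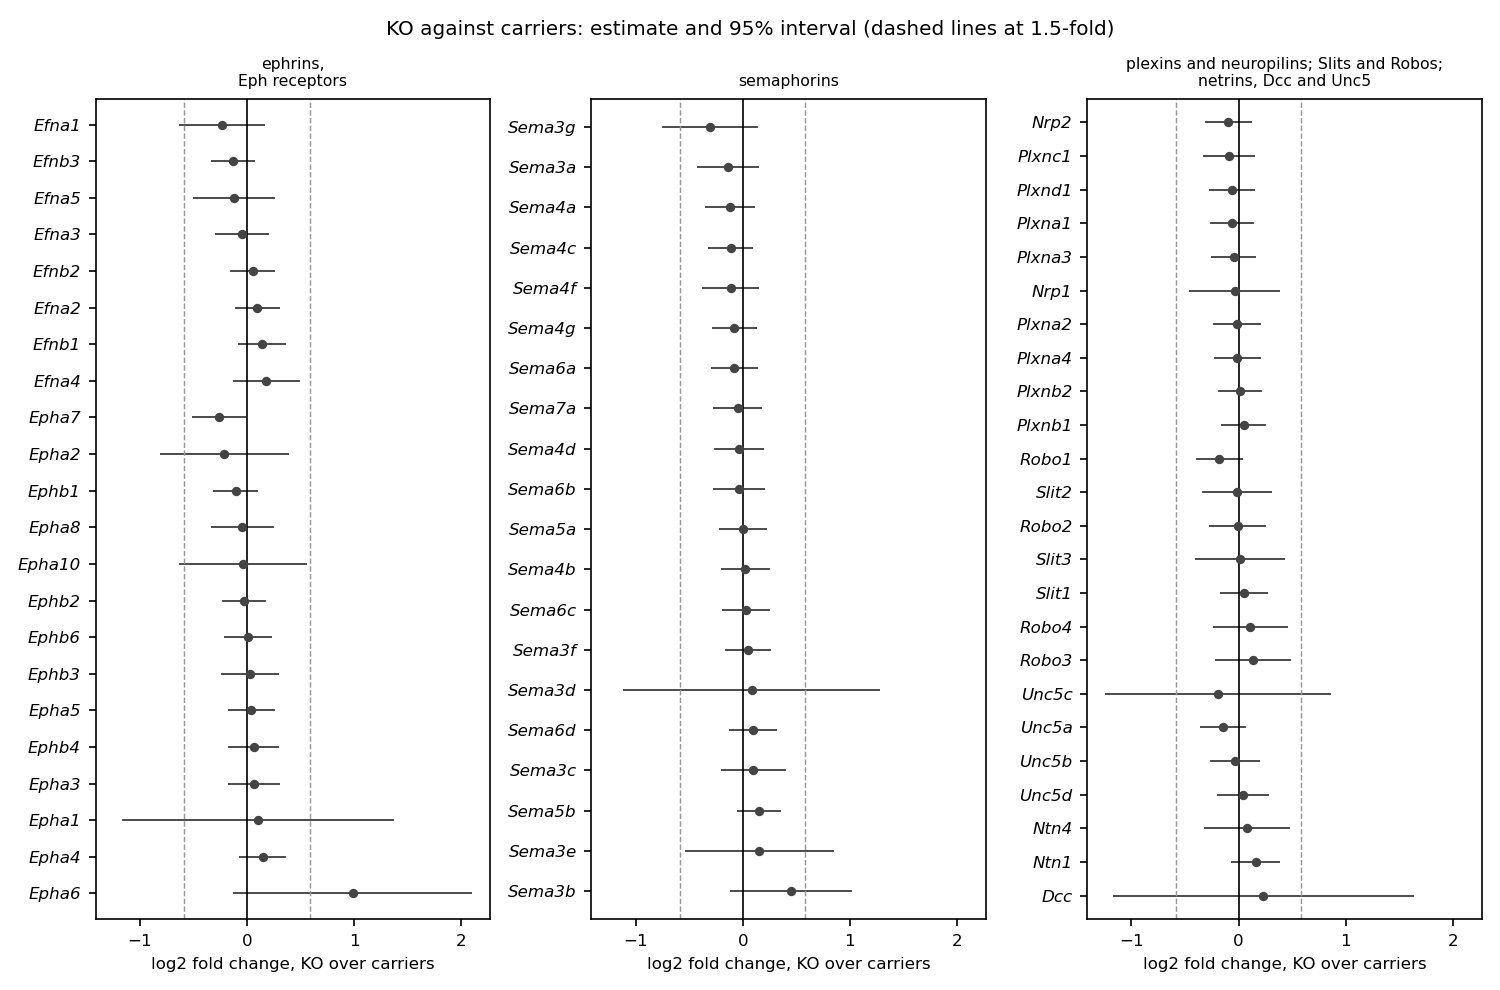
Log2 fold change of the KO libraries over the carriers for the 66 tested members, with 95% intervals from the edgeR fit (points and lines) and dashed lines at 1.5-fold. Most intervals lie between the dashed lines, 0 members passed the threshold, and the widest intervals belong to Dcc, Epha1, Sema3d, Epha6 and Unc5c.

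Among the ephrin ligands, 4 of 8 genes were estimated above 0 and 4 below, and the summed CPM was 946 in KO26F and 988 in KO23M, against 953 in WT22M and 946 in WT25F. Efnb1 had 291 CPM in KO26F and 339 in KO23M, against 304 in WT22M and 267 in WT25F. KO23M was the highest and WT25F the lowest, and the arms overlapped (log2 fold change 0.14, SE 0.11). Efnb3, an ephrin-B ligand of the midline and of neurons, had 260 CPM in KO26F and 266 in KO23M, against 276 in WT22M and 300 in WT25F. Both KO libraries were below both carriers, by a log2 fold change of -0.13 (SE 0.10) that did not pass. Efna1, a ligand known from vessels and epithelia, had 7.77 CPM in KO26F and 10.1 in KO23M, against 9.62 in WT22M and 11.4 in WT25F. The arms overlapped and KO26F stood lowest (-0.23, SE 0.19). Efna5 had 13.9 CPM in KO26F and 11.0 in KO23M, against 11.6 in WT22M and 15.5 in WT25F, so both libraries titled F were above both titled M and the arms overlapped (-0.12, SE 0.18).

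Of the 14 Eph receptors, 8 were estimated above 0 and 6 below. Ephb2 was steady, with 296 CPM in KO26F and 294 in KO23M, against 297 in WT22M and 303 in WT25F. Its interval ran from -0.23 to 0.18 on the log2 scale. Ephb6 had 75.0 CPM in KO26F and 86.1 in KO23M, against 82.5 in WT22M and 77.2 in WT25F, and the arms overlapped (0.01, SE 0.11). Epha7, an ephrin-A receptor that takes part in cortical patterning, had 32.9 CPM in KO26F and 32.5 in KO23M, against 35.5 in WT22M and 42.5 in WT25F. The KO libraries were close together and below both carriers, and the carriers differed more from each other than WT22M did from the KO libraries. The log2 fold change was -0.26 (SE 0.12, 95% interval -0.51 to -0.01), with an unadjusted p of 0.0458 and an adjusted p of 1 in edgeR.

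Epha6, a neuronal Eph receptor, carried the largest estimate of any member on few counts. It had 18 counts in KO26F and 21 in KO23M, against 11 in WT22M and 8 in WT25F, or 0.978 and 1.15 CPM against 0.626 and 0.442 CPM. Both KO libraries were higher, but the log2 fold change of 0.99 (SE 0.54) had an interval from -0.13 to 2.11. Epha2, a receptor known from epithelia and progenitors, had 2.55 CPM in KO26F and 4.28 in KO23M, against 3.64 in WT22M and 4.25 in WT25F. Epha10, a receptor with an inactive kinase, had 2.93 CPM in KO26F and 3.78 in KO23M, against 3.02 in WT22M and 3.87 in WT25F. The arms overlapped for both genes, with KO26F lowest in each. Epha4, named after its values were seen, had 107 CPM in KO26F and 106 in KO23M, against 88.7 in WT22M and 104 in WT25F (0.15, SE 0.10); the arms were separated, and WT22M stood apart from the other libraries.

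The semaphorins divided evenly, with 10 of 20 estimated above 0 and 10 below, and 16 of 20 overlapped between the arms. Sema6c had 339 CPM in KO26F and 407 in KO23M, against 380 in WT22M and 349 in WT25F (0.03, SE 0.11). Sema4c, a plexin B2 ligand, had 141 CPM in KO26F and 156 in KO23M, against 169 in WT22M and 153 in WT25F (-0.11, SE 0.10). In each of these genes the 2 libraries titled F were the lowest and the arms overlapped. Sema5b, a transmembrane semaphorin with thrombospondin repeats, had 126 CPM in KO26F and 132 in KO23M, against 117 in WT22M and 116 in WT25F. Both KO libraries were higher by a log2 fold change of 0.15 (SE 0.10) that did not pass. Sema3b, a secreted ligand, had 4.56 CPM in KO26F and 3.78 in KO23M, against 2.96 in WT22M and 3.15 in WT25F, again with both KO libraries higher and a wide interval (0.45, SE 0.28, interval -0.12 to 1.02). Sema3e, the ligand of plexin D1, had 2.61 CPM in KO26F and 2.74 in KO23M, against 1.77 in WT22M and 3.04 in WT25F, with overlapping arms (0.15, SE 0.34).

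Among plexins and neuropilins, 8 of 10 tested genes were estimated below 0, with -0.09 as the lowest log2 value, and 9 of 10 overlapped between the arms. Plxnb2 had 325 CPM in KO26F and 344 in KO23M, against 341 in WT22M and 323 in WT25F (0.01, SE 0.10). Plxna3 had 298 CPM in KO26F and 277 in KO23M, against 306 in WT22M and 287 in WT25F (-0.05, SE 0.10). Both genes kept all 4 libraries close together. Nrp2 had 149 CPM in KO26F and 122 in KO23M, against 141 in WT22M and 149 in WT25F (-0.09, SE 0.11). Plxnc1, the receptor of Sema7a, had 43.1 CPM in KO26F and 43.4 in KO23M, against 41.1 in WT22M and 51.0 in WT25F (-0.09, SE 0.12). In Nrp2 the KO23M library stood low, and in Plxnc1 the WT25F library stood high. Nrp1 had 21.6 CPM in KO26F and 13.1 in KO23M, against 17.4 in WT22M and 18.2 in WT25F. The carriers lay between the KO libraries, and the log2 fold change was -0.04 (SE 0.20).

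The Slits and Robos showed 5 of 7 genes overlapping between the arms. Slit1 had 103 CPM in KO26F and 104 in KO23M, against 110 in WT22M and 90.2 in WT25F (0.05, SE 0.11), with the KO libraries between the carriers. Robo1, a Slit receptor of cortical and thalamic axons, had 78.4 CPM in KO26F and 77.3 in KO23M, against 84.0 in WT22M and 92.1 in WT25F. Both KO libraries were lower, by a log2 fold change of -0.18 (SE 0.10) that did not pass. Robo2 had 109 CPM in KO26F and 85.5 in KO23M, against 89.0 in WT22M and 107 in WT25F, so it divided by title letter and not by arm (-0.01, SE 0.12). Robo3 had 12.3 CPM in KO26F and 15.6 in KO23M, against 12.6 in WT22M and 12.8 in WT25F, with KO23M alone high (0.13, SE 0.17).

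In the netrin system, 4 of 7 tested genes were estimated above 0. Ntn1, the secreted ligand, had 68.5 CPM in KO26F and 74.5 in KO23M, against 61.5 in WT22M and 66.5 in WT25F. Both KO libraries were higher, by a log2 fold change of 0.16 (SE 0.11) that did not pass. Unc5a had 96.0 CPM in KO26F and 97.5 in KO23M, against 114 in WT22M and 100 in WT25F, both KO libraries lower (-0.15, SE 0.10, not past the threshold). Dcc had 122 counts in KO26F and 42 in KO23M, against 53 in WT22M and 83 in WT25F, or 6.63 and 2.30 CPM against 3.02 and 4.58 CPM. Its KO libraries were the highest and the lowest of the 4, and the interval of the log2 fold change of 0.23 (SE 0.55) ran from -1.18 to 1.64. Unc5c had 7.44 CPM in KO26F and 5.54 in KO23M, against 4.50 in WT22M and 10.3 in WT25F, where the carriers were the extremes (-0.19, SE 0.42).

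**Figure D3:**
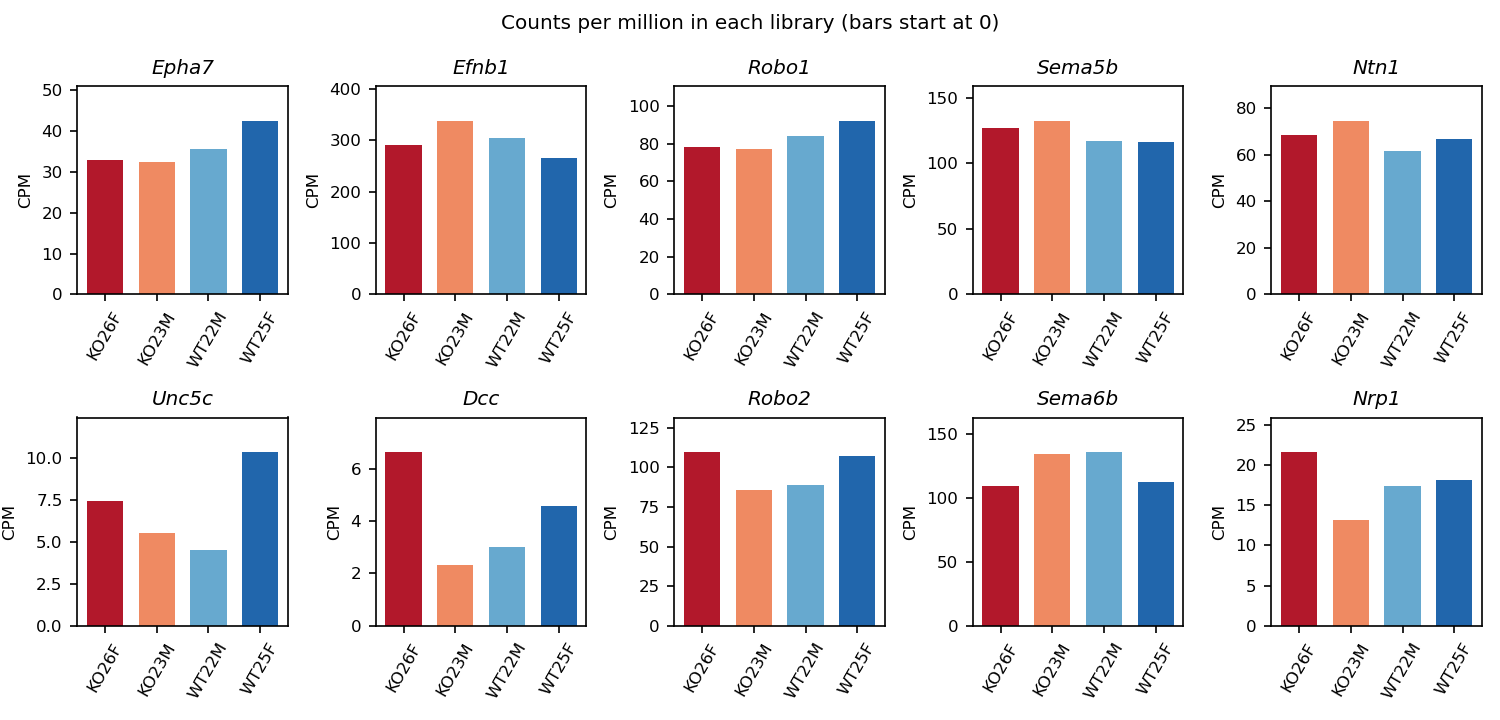
CPM of 10 members in each library (bars from 0; KO26F and KO23M at left, WT22M and WT25F at right in each panel). In the upper row Epha7, Robo1, Sema5b and Ntn1 have small gaps between KO and carriers, such as Epha7 at 32.9 and 32.5 CPM against 35.5 and 42.5 CPM. The arms of Efnb1, also in the upper row, overlap. In the lower row Unc5c, Dcc, Robo2, Sema6b and Nrp1 differ more within the arms than between them.

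For the 53 members with at least 10 CPM in all 4 libraries, the ratio of the highest to the lowest library had a median of 1.19, against 1.17 over 9840 genes at that level. The largest was 1.65, in Nrp1. With the title letter as a block, edgeR again called 0 of 66 members, against 0.757% of all genes. At an unadjusted p under 0.05 that fit had 6 members (Epha4, Epha7, Robo1, Efnb1, Efnb3 and Sema5b), or 9.09% of those tested, against 6.82% of all genes. The lowest adjusted p of a member was 0.461.

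Other genes of the pathway were read from 3 lists: 30 further guidance ligands and receptors, 17 adhesion proteins that partner with guidance receptors and 55 signalling effectors. All of them were tested, and edgeR called 0 between KO and carriers. In the first list 18 of 30 genes were estimated above 0, with both KO libraries higher for 5 and lower for 2. Among the adhesion partners 5 of 17 were above 0, with 3 higher and 5 lower in both KO libraries, and among the effectors 30 of 55, with 7 higher and 8 lower. Both KO libraries were thus on one side for 7 of 30, 8 of 17 and 15 of 55 genes, against the 27.4% of all genes tested. The median log2 fold changes of the 3 lists were 0.02, -0.08 and 0.01.

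Cxcl12, a chemokine of the meninges that guides migrating neurons, had 73.1 CPM in KO26F and 74.0 in KO23M, against 89.7 in WT22M and 92.8 in WT25F. The arms did not overlap, and the log2 fold change of -0.31 (SE 0.10) did not pass (edgeR adjusted p = 1). Cdk5, a kinase downstream of semaphorin receptors, had 82.0 CPM in KO26F and 94.9 in KO23M, against 113 in WT22M and 101 in WT25F (-0.27, SE 0.11, edgeR adjusted p = 1). Mdk, a secreted heparin-binding growth factor, had 181 CPM in KO26F and 225 in KO23M, against 194 in WT22M and 165 in WT25F. Its arms overlapped. Rgmb, a repulsive guidance molecule, also overlapped at 58.9 CPM in KO26F and 46.7 in KO23M, against 43.2 in WT22M and 51.0 in WT25F. The other genes with the smallest p in their lists were the adhesion proteins Chl1, Ncam2 and Cntn6 and the effectors Mical2 and Arhgap39, and their adjusted p was 1 in edgeR.

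Marker lists were also read for the other cells that such a dissection can hold. The 8 meninges markers summed to 314 CPM in KO26F and 339 in KO23M, against 410 in WT22M and 393 in WT25F, and 6 of 8 were lower in both KO libraries, where 27.4% of all genes lay on one side and 49.4% of those were lower. The 10 markers of endothelium and pericytes summed to 368 CPM in KO26F and 379 in KO23M, against 414 in WT22M and 399 in WT25F, with 4 of 10 lower in both. Cxcl12 was lower in the same libraries as these sums, and their part in its value was not tested. The 6 ventral markers summed to 1026 CPM in KO26F and 1095 in KO23M, against 920 in WT22M and 940 in WT25F, with 4 of 6 higher in both KO libraries. The 6 neuron markers summed to 5914 CPM in KO26F and 6210 in KO23M, against 6332 in WT22M and 6291 in WT25F. Progenitor markers summed to 1613 CPM in KO26F and 1791 in KO23M, against 1764 in WT22M and 1658 in WT25F. Microglia markers summed to 64.4 CPM in KO26F and 69.9 in KO23M, against 85.6 in WT22M and 69.2 in WT25F. These microglia sums overlapped, while 4 of 6 markers were lower and 1 (P2ry12) higher in both KO libraries. No marker was at 0 counts in a library, and 0 genes of these lists were called between KO and carriers.

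The genotype field separates WT22M from WT25F, so these 2 libraries were also compared, with the spread taken from the KO libraries. The test compares 2 libraries and not 2 genotypes. They also differ in title letter, as do the 2 KO libraries that give the spread. Unc5c, a repulsive netrin receptor (ENSMUSG00000059921, chromosome 3, 141465216 to 141834924 on GRCm38, plus strand), was the 1 member called of 66, and it was lower in WT22M. Among all genes 116 were called (0.714%), 87 of them lower (0.535%). Unc5c had 79 counts in WT22M, against 187 in WT25F, and the log2 fold change was -1.20 (SE 0.32, 95% interval -1.82 to -0.58, edgeR adjusted p = 0.0239). The KO libraries lay between them at 137 counts in KO26F and 101 in KO23M. At an unadjusted p under 0.05 Unc5c was again the 1 member (1.52%), against 4.88% of all genes. DESeq2 and a fit without the filter on low counts each called 0 members. A fit with the spread of both arms also called 0 members. That spread holds the difference between WT22M and WT25F itself, so this fit cannot check the call.

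Markers of diencephalon, choroid plexus and blood differed in sum between the same 2 libraries. The 7 diencephalon markers summed to 39.8 CPM in WT22M, against 97.2 CPM in WT25F, and 2 of the 6 tested were called lower. Tcf7l2, a thalamic transcription factor, had 7.97 CPM in WT22M, against 45.7 CPM in WT25F. Gbx2, another thalamic transcription factor, had 1.99 CPM in WT22M, against 6.96 CPM in WT25F. The KO libraries were near WT22M for the diencephalon sum, at 42.8 CPM in KO26F and 40.5 in KO23M. The 6 choroid plexus markers summed to 204 CPM in WT22M, against 934 in WT25F, with 5 called lower in WT22M, and to 985 CPM in KO26F and 792 in KO23M. The 6 blood markers summed to 567 CPM in WT22M, against 985 CPM in WT25F, with 2 called lower (Hbb-y and Hba-a1), and to 696 CPM in KO26F and 662 in KO23M. Of the 6 ventral markers, Nkx2-1 alone was called, lower at 47.7 CPM in WT22M, against 82.9 CPM in WT25F (edgeR adjusted p = 0.00276). The ventral list did not follow it: 3 of 6 were estimated above 0 and the median log2 fold change was -0.04. Its sum was 920 CPM in WT22M, against 940 CPM in WT25F. Unc5c in WT25F thus stood beside higher diencephalon, choroid plexus and blood markers, and their part in its value was not tested. Of the pathway lists, Ntng1, a membrane-anchored netrin relative of thalamic axons, was called too, at 6.04 CPM in WT22M, against 12.8 CPM in WT25F (log2 fold change -1.09, SE 0.29, edgeR adjusted p = 0.0280).

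Several members divided by title letter, so the libraries titled F (KO26F and WT25F) were set against those titled M (KO23M and WT22M), a comparison added after the values were seen. The edgeR test without a block called 0 of 66 members, against 41 of all genes (0.252%). At an unadjusted p under 0.05 there were 14 members (21.2%), against 14.6% of all genes. With the arm as a block, 6 members were called (9.09%), against 4.1% of all genes, and DESeq2 called 3 of 29 members that kept an adjusted p, against 7.73% of all genes that did. Both F libraries lay on one side of both M libraries for 33 of 66 members (50.0%), 16 higher and 17 lower, against 47.4% of all genes (23.5% higher, 23.9% lower).

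The 3 members called higher in F with the arm as a block were Robo2, Dcc and Unc5c, against 1.54% of all genes. Robo2 had 109 CPM in KO26F and 107 CPM in WT25F, against 85.5 CPM in KO23M and 89.0 CPM in WT22M (log2 0.31, edgeR adjusted p = 0.00321 with the block and 0.0768 without it). Dcc had 6.63 CPM in KO26F and 4.58 CPM in WT25F, against 2.30 CPM in KO23M and 3.02 CPM in WT22M (1.06 with the block, edgeR adjusted p = 0.00573, and 0.116 without it). Unc5c had 7.44 CPM in KO26F and 10.3 CPM in WT25F, against 5.54 CPM in KO23M and 4.50 CPM in WT22M (0.81 with the block, edgeR adjusted p = 0.00795, and 0.142 without it). The F libraries were above the M libraries in all 3 genes. WT25F and WT22M also gave the earlier call of Unc5c, so the calls of that gene are not separate evidence.

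The 3 called lower in F were Sema6b, Sema6c and Efnb1, against 2.55% of all genes. Sema6b, a class 6 transmembrane semaphorin, had 109 CPM in KO26F and 113 CPM in WT25F, against 134 CPM in KO23M and 136 CPM in WT22M (-0.28, edgeR adjusted p = 0.00532 with the block and 0.0901 without it). Efnb1, which lies on the X chromosome, had 291 CPM in KO26F and 267 CPM in WT25F, against 339 CPM in KO23M and 304 CPM in WT22M (-0.20, edgeR adjusted p = 0.0267 with the block and 0.197 without it). Sema6c gave -0.19, with adjusted p = 0.0345 with the block and 0.161 without it in edgeR. DESeq2 called Robo2, Sema6b and Sema6c.

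The 3 higher members are long genes and the 3 lower ones short. Robo2 spans 520 kb, Dcc 1092 kb and Unc5c 370 kb, while Sema6b spans 17.3 kb, Sema6c 13.6 kb and Efnb1 12.9 kb. Over the 66 members, the Spearman correlation of the log2 ratio of F over M with genomic span was 0.57. Over all 16252 genes it was 0.30. These are descriptions across genes that share the same 4 libraries. For KO over carriers the same values were 0.08 for the members and 0.03 for all genes.

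Of 31 members longer than 100 kb, 15 were higher and 2 lower in both F libraries, against 42.6% and 9.24% of 2229 genes of that length. Of 27 members of at most 30 kb, 0 were higher and 13 lower in both F libraries, against 15.1% and 31.4% of 9843 such genes. The median log2 ratio was below 0 in classes under 30 kb and above 0 in classes over 100 kb, for members and for all genes. For members they were -0.12 under 10 kb (5 genes), -0.12 from 10 to 30 kb, 0.00 from 30 to 100 kb, 0.15 from 100 to 300 kb and 0.11 above. Over all genes tested they were -0.08, -0.03, 0.06, 0.11 and 0.15. Sex, as the letters give it, cannot be told apart from any other feature that the libraries of a letter share. The choroid plexus markers summed to 985 CPM in KO26F and 934 CPM in WT25F, against 792 CPM in KO23M and 204 CPM in WT22M. The blood markers summed to 696 CPM in KO26F and 985 CPM in WT25F, against 662 CPM in KO23M and 567 CPM in WT22M. For each of these lists all 6 markers were estimated above 0 and 0 were called (edgeR). The 6 tested diencephalon markers were also all estimated above 0 with 0 called, and their sum was high in WT25F alone. The choroid plexus sum in turn stood apart in WT22M, where it was low. The part of these markers in the difference was not tested.

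**Figure D4:**
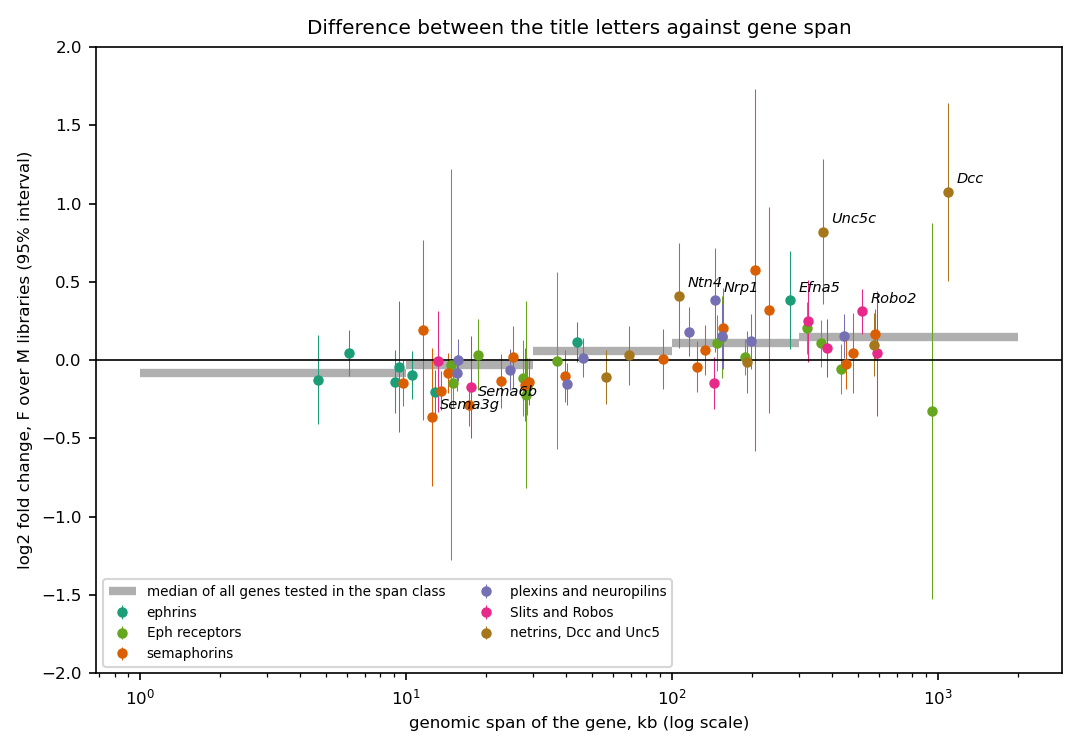
Log2 fold change of the F libraries over the M libraries (95% interval) against genomic span in kb (log axis) for the 66 tested members, coloured by family, with grey bars for the median of all genes tested in each span class. Long members such as Dcc (1092 kb), Unc5c and Robo2 lie above 0 and short members such as Sema6b below, and the grey bars pass from below 0 to above 0 with span.

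The authors' deposited tables set KO26F, KO23M and WT22M each against WT25F, 1 library against 1, and share that library. KO26F has the title letter of WT25F, while KO23M and WT22M do not. For KO23M and WT22M, letter and genotype label therefore cannot be told apart. In the authors' deposited table for KO26F, 0 members carry the mark of significance, against 1.96% of all genes listed. In the authors' deposited table for KO23M the 1 marked member is Dcc (log2 fold change -1.03, adjusted p = 0.000854), against 2.9% of all genes. In the authors' deposited table for WT22M the 1 marked member is Unc5c (-1.23, adjusted p = 1.01e-09), against 3.62% of all genes. The mark asks for an adjusted p under 0.05 and a fold change of at least 2 in either direction. By adjusted p alone, the authors' deposited tables hold 18 members for KO26F (against 13.7% of all genes), 31 for KO23M (against 22.1%) and 30 for WT22M (against 22.4%). All 68 members are listed in each comparison, so by adjusted p alone the member shares are above those of all genes. Of the tested members 63.6% lay above the median level per kb of all genes tested, and the part of level was not tested. With no replicates in these tables, their p-values do not carry the spread between embryos.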

How the data were processed

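Total RNA of 4 samples was made into TruSeq libraries and sequenced, per the labels' protocols. The submitters' processing notes name Bowtie2 2.2.3, TopHat2 2.0.12, HTSeq 0.6.0 and the build mm9; strand and multi-mapping settings were not given in the sources used here. Positions in the files are identical to GENCODE vM21 on GRCm38 for 91.8% of 22039 matched genes, and GRCm38 is used here. The 3 tables the authors deposited compare 1 library each with WT25F and hold whole-number counts that are not normalized. The authors also deposited CPM (a count of 0 written as 0.5 counts), a fold ratio, its log2, and a p-value and adjusted p-value from a test the sources do not name.

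Counts of the 3 tables were joined by gene identifier, and a gene absent from a table was set to 0; all 68 members are in all 3. The main test was edgeR 4.0.16's quasi-likelihood test (robust, TMM, filterByExpr on the arms, Benjamini-Hochberg over 16252 genes, threshold 0.05). WT22M against WT25F came from a 3-group fit whose spread is that of the KO libraries. Standard errors are the absolute log2 fold change over the square root of F, and 95% intervals use the fit's degrees of freedom. Levels per kb divide CPM by the union of exons in GENCODE vM21. Exons of 17 members share bases with another gene, over 10% in Efna3, Efna4, Ntn5 and Plxna1, so reads there may be split. Those intervals hold the spread between libraries, while the intervals of single pairs of libraries (conditional binomial, Clopper-Pearson) and the floors cover counting error only. Alternatives were DESeq2 1.42.0, limma 3.58.1 voom, RLE factors, total-count CPM, no filter, a filter of 1 CPM in at least 2 samples, a block for the title letter and each library left out; scripts were tested on simulated data. R 4.3.3 and Python 3.11.15 were used.

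The members and lists were chosen with earlier results of these data known. Named members are, per family, the 2 highest per kb, the 2 with the smallest p for KO against carriers, the 2 with the largest ratio between libraries at 1 CPM or more, any past a threshold, and those not tested; 3 genes per pathway list follow the smallest p. Members named beyond this, and the promoters printed, were chosen after their values were seen.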

Additional observations from a re-analysis of the deposited data

Results flagged for a closer look

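For 3 semaphorin receptors the ratio of KO to carrier went in opposite directions in the F pair (KO26F over WT25F) and the M pair (KO23M over WT22M), with 95% counting intervals clear of 0 on the log2 scale in both pairs. That is 4.55% of the 66 members, which is close to the share of all genes tested (675 genes, 4.15%). The difference between the pairs was not tested, since each pair holds 1 library an arm and the intervals hold only counting error. Nrp1, the co-receptor of Sema3a, gave 0.25 in the F pair (0.03 to 0.46) and -0.41 in the M pair (-0.66 to -0.16), a difference of 0.65. Plxna2, a plexin that pairs with neuropilins and binds class 6 semaphorins, gave 0.17 in the F pair (0.12 to 0.22) and -0.21 in the M pair (-0.26 to -0.16), a difference of 0.38. Plxna4, a plexin of Sema3a and class 6 semaphorin signalling, gave 0.08 in the F pair (0.01 to 0.15) and -0.11 in the M pair (-0.19 to -0.04), a difference of 0.20. All 3 genes span more than 100 kb, and KO23M was the lowest library for each.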

How the results depend on the processing

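Between KO and carriers, 0 members were called under every alternative run: DESeq2, limma voom, RLE factors, no filter, the other filter, the title letter as a block and each library left out. The titles give no replicate numbers; the deposited count columns number the libraries 1 and 2 in each arm, and these numbers fall together with the letters F and M, so the letter served as the replicate block. Deviations of same-numbered libraries correlated at 0.27 over all genes tested, and 2 pairs are too few to call the numbers a pairing. The block gave 0 members and 123 genes, against 10 genes without it. Leaving out 1 library gave 42 to 110 genes and 0 members. Both KO libraries lay on one side for 18 members, and for 16 with total-count CPM, 19 with RLE factors and 17 with the other filter. Of 333 log2 fold changes of 28 named members under alternatives, 308 kept their direction, 25 did not, and 0 passed. All 25 came from leaving out 1 library. They were 10 without KO23M, 9 without WT25F, 3 without KO26F and 3 without WT22M. With each library left out in turn, these members ran from -0.090 to 0.11 (Ephb6), -0.63 to 0.11 (Epha2), -0.23 to 0.15 (Epha10), -0.090 to 0.20 (Slit1), -0.20 to 0.16 (Robo2), -0.049 to 0.29 (Robo3), -0.31 to 0.10 (Efna5), -0.67 to 0.52 (Unc5c), -0.72 to 0.80 (Dcc), -0.032 to 0.051 (Plxnb2), -0.10 to 0.0029 (Plxna3), -0.25 to 0.045 (Nrp2), -0.24 to 0.071 (Plxnc1), -0.44 to 0.28 (Nrp1), -0.11 to 0.16 (Sema6c) and -0.18 to 0.59 (Sema3e). For WT22M against WT25F the count of 1 member became 0 with DESeq2, without the filter and with the spread of the 2-arm fit. There 33, 0 and 0 genes were called. The spread of the 2-arm fit holds the difference between these 2 libraries itself, so that fit is no check. For DESeq2 and the fit without the filter the cause was not tested. For F against M the count of 0 members became 3 with DESeq2 and 6 with the arm as a block; the block leaves 1 residual degree of freedom. Members of few counts have wide intervals: Epha6 did not pass at an estimate of 0.99 on the log2 scale.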
